A study of Mus musculus with 168 samples.

Results

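The SMN complex is the assembly machine that lacks its central protein in spinal muscular atrophy (SMA), an inherited loss of motor neurons that follows a shortage of the survival motor neuron protein, SMN. Its genes were followed as 10 named rows of a table of 39410 genes: the mouse gene Smn1, the human transgene row SMN2, the Gemin genes Gemin2, Ddx20 (which encodes Gemin3), Gemin4, Gemin5, Gemin6, Gemin7 and Gemin8, and Strap (which encodes Unrip). The members were chosen by name, and all 10 passed the filter on low values in each of the 6 neuron populations. Smn1 is the gene removed in the SMA mice, so its loss describes the genotype. The question put to the other rows was whether the rest of the complex changes when Smn1 is lost, and how it varies with day and population.

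RNA came from 34 mice and was measured as 168 libraries, each made by Smart-seq2, which reads whole transcripts from small inputs, from neurons cut out of frozen sections by laser and pooled. SMA mice (19) had the genotype Smn-/-;SMN2+/+;SMNΔ7+/+, known as delta7, and controls (15) were Smn+/+ with the same 2 transgenes. Both genotypes therefore carried the full human SMN2 gene and the SMNΔ7 cDNA, and the loss of Smn1 is carried in the germline. The animals are littermates per the series' design text, which does not say which mice shared a litter. In tests within a population p-values measure the spread between mice. Tests over populations use several samples of a mouse, with the mouse as a random block of low correlation (0.037). Their p-values therefore measure mostly the spread between samples. Mice were taken at postnatal day 2 (6 control, 9 SMA), day 5 (5 of each) and day 10 (4 control, 5 SMA). The populations were motor neurons of the oculomotor and trochlear nuclei (ocular), the facial, vagus and hypoglossal nuclei and the lumbar spinal cord, and red nucleus neurons, which are not motor neurons. Libraries of the same mouse and population were averaged to 160 samples in 36 groups of 3 to 7 mice. Per the labels, some ocular libraries held only the oculomotor or only the trochlear nucleus, and reads of an earlier deposit were added to the 5 lumbar control libraries at day 5. Depth ran from 0.342 to 16.3 M reads per library, with a median of 5.89, worked out from the steps of the low values (M, mega).

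Cell identity was checked with defining markers. Chat, which makes acetylcholine, had means of 17.2 to 31.1 RPKM in the motor populations and was at 0 in 16 of 23 red nucleus samples. Pou4f1, a red nucleus marker, had a mean of 220 RPKM in red nucleus samples and 4.396 in ocular samples, where the highest reached 57.4. Hoxc10 had a mean of 86.7 RPKM in lumbar samples and was near 0 elsewhere. Glial genes were present in all populations, so the samples hold RNA of neighbouring cells. In such pooled samples fewer cells of a type and less RNA per cell cannot be told apart.

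The complex works in the cytoplasm. SMN and Gemin2 form its core, Gemin5 recognises small nuclear RNAs, and the complex places a ring of Sm proteins on each RNA before the particle is imported into the nucleus as a spliceosomal small nuclear ribonucleoprotein (snRNP). Gemin3 is a DEAD-box RNA helicase bound to Gemin4, Gemin6 and Gemin7 pair with each other and are held by Gemin8, and Unrip is a WD-repeat protein that joins the complex in the cytoplasm through Gemin7. In mice Smn1 is the sole gene for the protein. In humans SMN2 is a near copy of SMN1 whose transcripts mostly skip the exon known as exon 7, so it yields little full-length protein.

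The difference that defines SMN2 and the SMNΔ7 transgene lies in that exon. Below is the mouse counterpart, shown because a gene-level row cannot resolve it. It is exon 8 of 9 in the GENCODE M21 transcript of Smn1, at chr13:100135689-100135739 (GRCm38, plus strand), 51 bases long, with the stop codon in capitals.
Smn1 exon: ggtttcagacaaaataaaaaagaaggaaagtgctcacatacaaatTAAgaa
The stop codon begins at base 46 and 3 bases follow it, so nearly the whole exon codes for the end of SMN. A read counted to the SMN2 row may come from SMN2 with this exon, SMN2 without it, or the SMNΔ7 cDNA, and the row does not tell these apart.

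The mouse members lie on 8 chromosomes (GRCm38, GENCODE M21). Smn1 lies on chromosome 13 (100124852 to 100137690, plus strand), Gemin2 on chromosome 12 (59013393 to 59028470, plus) and Ddx20 on chromosome 3 (105678270 to 105687574, minus). Gemin4 (76210571 to 76217664, minus) and Gemin5 (58120002 to 58168539, minus) share chromosome 11. Gemin6 lies on chromosome 17 (80224441 to 80228497, plus), Gemin7 on chromosome 7 (19564946 to 19577595, minus), Gemin8 on chromosome X (166170454 to 166190512, plus) and Strap on chromosome 6 (137735078 to 137751932, plus). All are protein coding. Gemin4 is a compact gene inside a crowded locus: of its 3734 exon bases, 3353 are also exon of Glod4 on the same strand and 2875 are exon of Fam57a on the opposite strand. How the authors shared such reads between genes is not given in the sources used here, so every Gemin4 value below is uncertain. Gemin7 shares 263 of 1782 exon bases with Zfp296, whose mean was 0.324 RPKM.

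Promoter windows of the members were searched for CpG dinucleotides and 3 short motifs, on either strand. RefSeq promoter windows (GRCm38.p6) matched 9 mouse members at 11 transcription starts. In the 250 bases before each start, 9 of the 11 held more than 6 CpG, the median of 32851 starts, of which 46.3% lay above that count. The 2 starts below or at the median were both of Smn1, with 2 and 6 CpG. The letters TATAAA were in 0 members against 12.4% of starts. The letters CCGGAAG were in 2 members, Gemin8 and Smn1, against 6.91% of starts, and CCAAT in the same 2 against 33.9%.

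RPKM is scaled to gene length, so levels can be set side by side. Over all 160 samples Gemin7 had 102.3 ± 29.0 RPKM (SD) and Strap 72.7 ± 15.5, and both were above 30 in every sample. The other Gemins were far lower. Gemin4 had 10.6 ± 9.24, Gemin2 6.50 ± 4.11, Ddx20 4.43 ± 2.62, Gemin6 4.16 ± 3.32, Gemin5 3.74 ± 1.72 and Gemin8 1.12 ± 1.10. The pair that binds each other, Gemin6 and Gemin7, thus lay far apart, though Gemin5 and Gemin8 were lower than Gemin6. Smn1 lay between these levels in controls, and the human SMN2 row had 141 ± 42.5 over all samples. Zeros did not follow level among the lower members: Gemin4, the highest of them, was at 0 in 23 samples, Gemin8 in 20, Gemin6 in 5, Gemin2 in 1, and Ddx20, Gemin5, Gemin7 and Strap in 0.

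Group means show how far each member ranged over populations and days. Gemin2, the core partner of SMN, ran from 3.30 RPKM in the red nucleus at day 10 to 12.2 in hypoglossal neurons at day 5 in controls, and from 3.52 in the red nucleus at day 2 to 16.5 in vagus neurons at day 5 in SMA. Gemin5 ran from 2.21 to 5.74 in controls and from 2.46 to 4.88 in SMA, lowest in the red nucleus at day 5 in both. Ddx20 ran from 2.34 to 7.89 and from 1.89 to 6.61, lowest in vagus neurons at day 2 in both. These are means of 3 to 7 mice, and such extremes among 18 groups are descriptions. Gemin6 ran from 1.47 to 11.2 in controls and from 1.59 to 7.95 in SMA, and Gemin8 from 0.437 to 2.94 and from 0.228 to 2.19. Gemin7, the abundant partner of Gemin6, ran only from 69.99 to 132.6 in controls and from 79.1 to 129.2 in SMA.

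The Smn1 row was not at 0 in every SMA sample. How reads were divided between mouse Smn1 and the human transgenes is not given in the sources used here, and the SMN2 row was at 56.8 RPKM or more in all SMA samples, so these low values may hold transgene reads. The row was above 0 in 18 of 88, at 0.0970 to 4.24 RPKM, in 11 of 19 mice. By day these were 6 of 36 samples at day 2, 10 of 24 at day 5 and 2 of 28 at day 10. Day 5 SMA libraries were the deepest, with a median of 8.04 M reads against 5.61 at day 2 and 4.80 at day 10, and the part of depth in this count was not tested. The SMA minus control difference in Smn1, averaged over populations, was −4.69 on the log2(RPKM + 1) scale at day 2, −4.03 at day 5 and −4.54 at day 10. Its change over the 3 days was not past the threshold (limma F 3.53, adjusted p = 0.466).

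Few differences were detected in the rest of the complex when Smn1 was lost. Each gene was tested with limma on log2(RPKM + 1), p-values were adjusted by Benjamini-Hochberg over all genes tested, and a call means an adjusted p under 0.05. Averaged over the 6 populations, 1 of 24 tests on the 7 Gemins and Strap (8 genes at 3 days) was called, against 1.15% of tests over all genes. That call was Gemin4, higher at day 10. Averaged over days as well, 0 of 8 were called against 3.52% of 22270 genes, and 1 (Gemin4) had an unadjusted p under 0.05 against 15.5% of genes. The median difference of the 8 was 0.036 and that of all genes 0.044. DESeq2 and edgeR were not run, because the table holds no counts.

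**Figure D1:**
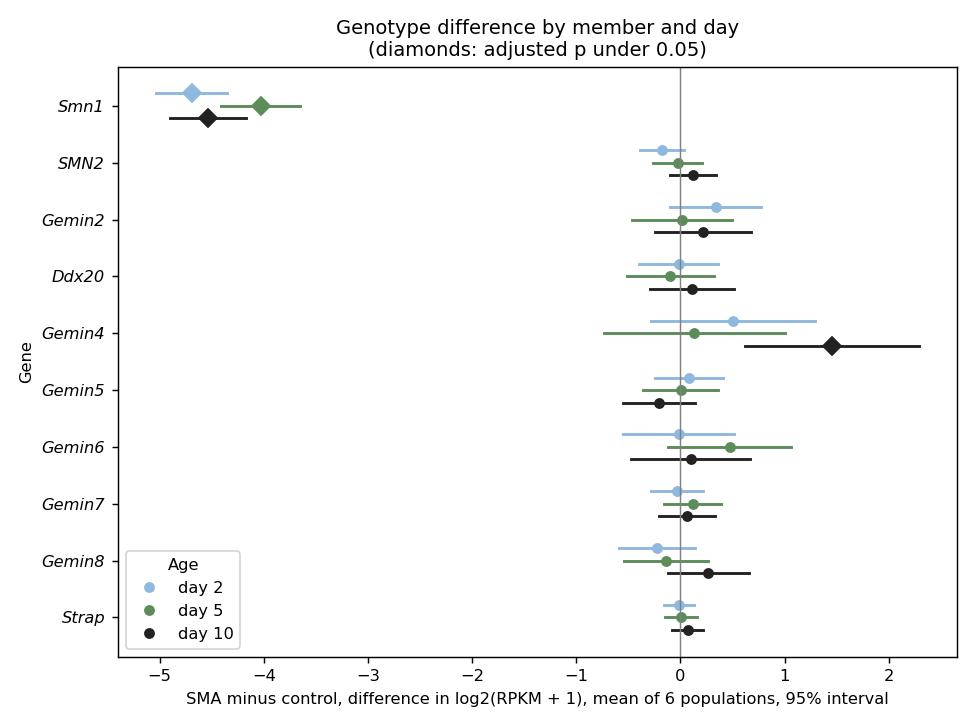
SMA minus control for each member at days 2, 5 and 10 in log2(RPKM + 1), averaged over the 6 populations, with 95% intervals as lines. Smn1 lies between −4.69 and −4.03, the interval of Gemin4 at day 10 lies above 0, and the 8 remaining members have intervals that include 0 at each day.

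The widths of the intervals say how large an undetected change could be. For Strap the difference over all days was 0.02 (SE 0.043, 95% interval −0.06 to 0.11), so a change beyond about 0.11 in either direction lies outside it. For Gemin7 it was 0.05 (−0.10 to 0.20), for SMN2 −0.03 (−0.16 to 0.10) and for Gemin5, the RNA-recognition subunit, −0.04 (−0.24 to 0.16). Gemin2, the partner of SMN in the core, differed by 0.19 (−0.07 to 0.46), and Gemin6 by 0.19 (−0.14 to 0.51). The helicase gene Ddx20 differed by −0.00021 (−0.23 to 0.23) and Gemin8 by −0.03 (−0.25 to 0.19). None of these intervals excludes 0, which does not show that the levels were equal. On this scale the change of a gene near 1 RPKM, such as Gemin8, is understated.

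Taken population by population, 144 tests of the 8 genes gave 1 call, Gemin4 in lumbar motor neurons at day 10, against 0.129% of all tests. At an unadjusted p under 0.05 there were 12, against 7.1% of all tests: 3 each for Gemin2, Gemin4 and Gemin6, 1 each for Ddx20, Gemin8 and Strap, and 0 for Gemin5 and Gemin7. SMA and control values did not overlap in 5 of the 144, 3 above and 2 below controls, against 3.06% of all tests. The 5 lay in different populations, and Gemin2 was among them in both directions. Gemin2 was above controls in vagus neurons at day 5 and below them in hypoglossal neurons at day 5. Gemin6 was above in facial neurons at day 5, where controls had 2.08, 2.27, 3.51 and 3.54 RPKM and SMA mice 5.08, 5.53 and 13.3. Gemin8 was below in red nucleus neurons at day 5, where controls had 0.680, 1.97 and 3.07 RPKM and SMA mice 0.0727, 0.101, 0.104 and 0.635. Strap was above in lumbar neurons at day 10. None of the 5 passed the adjusted threshold.

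**Figure D2:**
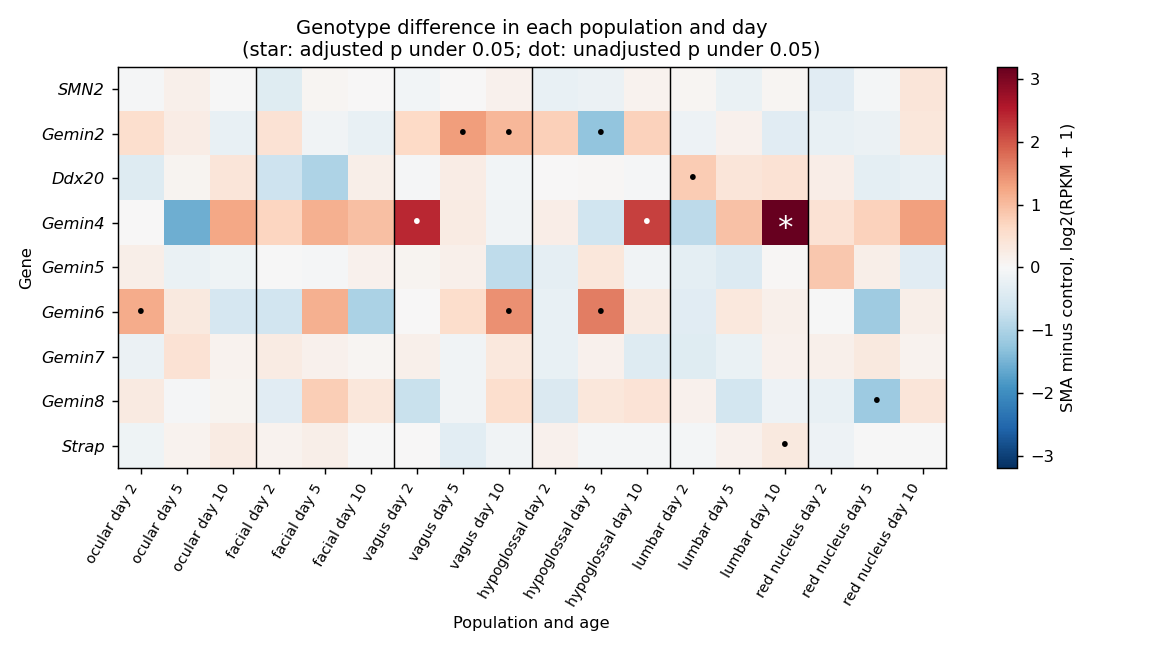
Heat map of SMA minus control in log2(RPKM + 1) for SMN2, the 7 Gemins and Strap (rows) in each population and day (columns). A star marks the 1 test past an adjusted p of 0.05, Gemin4 in lumbar neurons at day 10, and dots mark tests with an unadjusted p under 0.05, which fall in no single population.

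Of these 5, both Gemin2 cases are given in full as examples, chosen after their values were seen. In vagus neurons the controls had 3.43, 5.44, 6.76 and 8.72 RPKM and the SMA mice 13.4, 16.5 and 19.5, a log2 difference of 1.34 (SE 0.51, limma adjusted p = 0.901). In hypoglossal neurons the controls had 9.26, 10.4, 10.5 and 18.7 RPKM and the SMA mice 1.97, 3.80, 5.95 and 6.83, a log2 difference of −1.27 (SE 0.53, limma adjusted p = 0.777). The groups did not overlap in either place, and neither difference passed the threshold. The F test of whether the genotype difference of Gemin2 varies with population was not past the threshold (F 1.84, adjusted p = 0.754).

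No change of the genotype difference with day or population was detected. The F test over days called 0 of the 8 genes and the F test over populations 0 of 8, and none of these had an unadjusted p under 0.05. Over all genes 0.593% and 0.256% were called and 9.34% and 7.67% had an unadjusted p under 0.05.

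Gemin4, the partner of the Gemin3 helicase, had the largest genotype difference after Smn1. In lumbar motor neurons at day 10 the 4 controls had 0, 0, 0.847 and 13.4 RPKM, and the 5 SMA mice 12.6, 15.8, 18.3, 25.8 and 30.0. The SMA mice were all high and 3 of the 4 controls were near 0, but control mouse 247 lay inside the SMA range. The log2 difference was 3.18 (SE 0.76, limma adjusted p = 0.0351), in a comparison where 0.775% of genes were called. The call was lost without control mouse 252, 253 or 254 or without SMA mouse 196, 249 or 250 (log2 difference 2.78 to 4.06 with each of 34 mice left out, highest limma adjusted p = 0.152). With a pseudocount of 0.1 in place of 1 the log2 difference was 5.03. At 0 the depth allowed up to 0.297 RPKM (3 reads over the longest transcript, counting error only), and a typical sample carried the equivalent of 166.4 Gemin4 reads. The libraries at 0 had a median depth of 5.94 M reads against 5.88 for the others.

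Other populations at day 10 leaned the same way without passing the threshold, except the vagus. In hypoglossal neurons the controls had 0, 0, 0 and 5.599 RPKM and the SMA mice 0, 3.92, 5.29, 17.7 and 34.9 (log2 difference 2.19, limma adjusted p = 0.689). In vagus neurons the controls had 6.05, 21.0, 28.6 and 43.6 RPKM and the SMA mice 10.0, 15.8, 21.6, 22.9 and 27.8. Group means in the ocular nuclei were 5.10 in controls and 8.54 in SMA, in the facial nucleus 4.81 and 10.6, and in the red nucleus 7.47 and 14.2. Genotypes overlapped in all of them. At day 10 Gemin4 was at 0 in 8 of 24 control samples and 1 of 28 SMA samples, and over all days in 17 of 72 and 6 of 88.

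Averaged over populations, Gemin4 at day 10 was higher in SMA by 1.46 (SE 0.42, limma adjusted p = 0.0453), in a comparison that called 1.78% of genes. As means per mouse of deviations from the control average of each population over all days, in log2 units, the 4 controls had −0.89, −0.65, −0.15 and 0.10, and the 5 SMA mice 0.76, 0.97, 1.04, 1.15 and 1.31. The animals did not overlap, and the exact two-sided permutation p, unadjusted, was 0.00794, the smallest that the splits of 4 and 5 mice can give. The share of all genes that separate these mice was not computed. Gemin4 is shown because the same values gave its call, so the separation and this p are no further support for it. Adjusted over all genes the call depended on the setting. A limma fit of these means per mouse over all genes gave an adjusted p of 0.396, and the adjusted p rose to 0.0638 with a filter of 1 RPKM in at least 50% of the samples, to 0.0681 after quantile normalization and to 0.0534 with each library as a sample. With a pseudocount of 0.1 the difference was 2.48 (adjusted p = 0.0411). It was also lost without any of 14 mice, namely control mice 29, 34, 75, 247, 252 and 254 and SMA mice 31, 61, 77, 196, 199, 209, 250 and 258 (log2 difference 1.29 to 1.62 with each of 34 mice left out, highest limma adjusted p = 0.152).

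The genes that overlap Gemin4 were not called. Glod4, whose exons cover most of Gemin4 on the same strand, differed at day 10 by 0.01 (SE 0.22, limma adjusted p = 1), and Fam57a on the opposite strand by 0.38 (SE 0.24, limma adjusted p = 0.617). In lumbar neurons at day 10 Glod4 had 12.3 to 18.6 RPKM in controls and 12.3 to 15.7 in SMA. Fam57a there had 1.36, 2.85, 2.90 and 7.46 RPKM in controls and 1.95 to 5.73 in SMA. Its highest value was in control mouse 247, which was also the highest control for Gemin4. The shared exons mean that a Gemin4 value may still depend on how reads were divided, which was not tested. Sums of glial markers overlapped between the genotypes in the same groups. The 6 astrocyte markers summed to 1039 to 1231 RPKM in lumbar controls at day 10 and 1014 to 1758 in SMA, the 6 oligodendrocyte markers to 537 to 1176 and 673 to 993, the 7 microglial markers to 1.77 to 17.8 and 1.64 to 14.9, and the 5 vessel markers to 2.89 to 6.41 and 0.270 to 8.17. In these lumbar day 10 groups no marker was at 0 in all mice. Their part in the Gemin4 result was not tested.

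**Figure D3:**
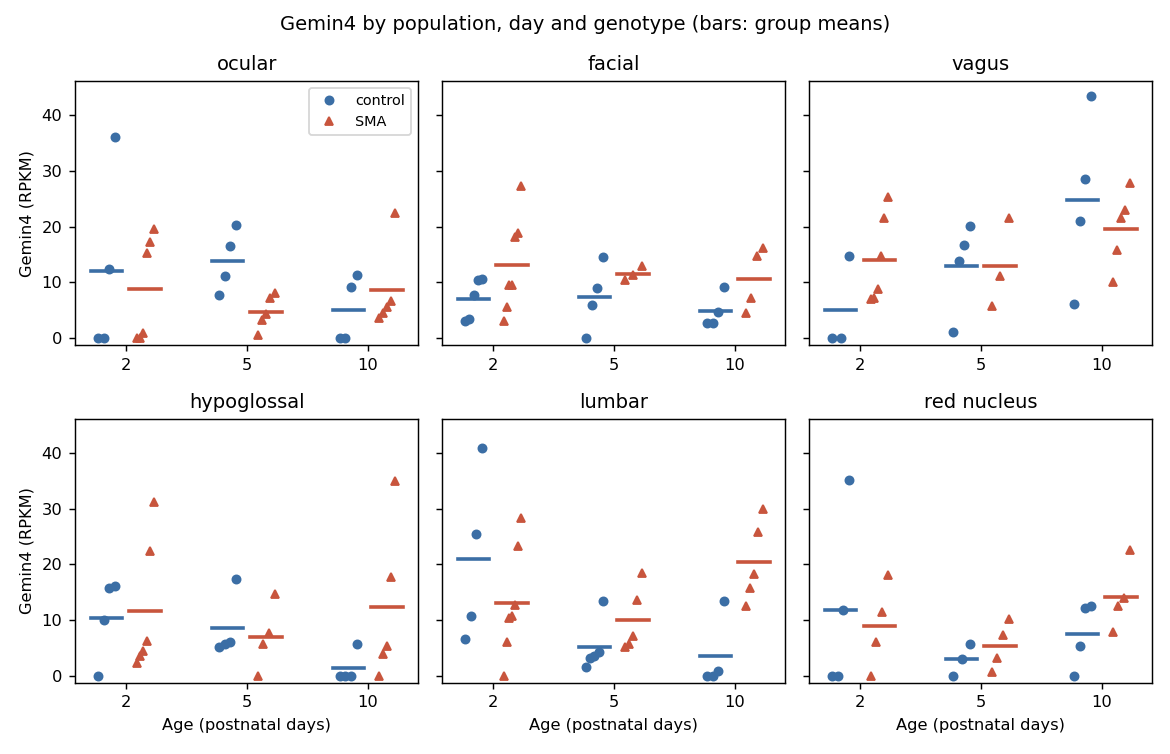
Gemin4 in RPKM for each mouse (points; circles control, triangles SMA) by population and postnatal day, with bars at group means. In lumbar neurons at day 10 the 5 SMA mice lie between 12.6 and 30.0 and 3 of 4 controls at or near 0, whereas vagus controls reach 43.6.

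The change of Gemin4 with age differed between control populations. In lumbar controls day 2 had 6.59, 10.7, 25.5 and 40.9 RPKM, against the 0 to 13.4 of day 10, a log2 change of −2.96 (SE 0.80, limma adjusted p = 0.0121), in a contrast that called 12% of genes. This call was lost without mouse 244, 253 or 254 (highest limma adjusted p = 0.0601). In vagus controls day 2 had 0, 0 and 14.8 RPKM and day 10 6.05 to 43.6, a log2 change of 3.08 (SE 0.83, limma adjusted p = 0.0704). This rise passed the threshold with a pseudocount of 0.1 (5.24, limma adjusted p = 0.0284) and without control mouse 244 (4.41, limma adjusted p = 0.00552), 30 (3.08, limma adjusted p = 0.0399) or 247 (3.62, limma adjusted p = 0.0420). The lumbar fall and the genotype difference at day 10 use the same 4 control samples and are not independent. The vagus and lumbar changes differed by 6.08 (SE 1.43, limma adjusted p = 0.00812), where 1.26% of genes were called, a pair chosen after its values were seen. Over all 6 populations F was 4.45 (limma adjusted p = 0.0236, 5.54% of genes called). SMA changes were 1.057 (limma adjusted p = 0.300) in lumbar and 0.54 (limma adjusted p = 0.733) in vagus neurons.

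Among the remaining members, SMN2 differed between day 2 and day 10 in both genotypes and Strap in SMA. From day 2 to day 10, averaged over populations, 1 of 16 tests of the Gemins and Strap was called (8 genes in each genotype), against 22.4% of all tests. The call was Strap in SMA. By population 2 of 96 were called against 7.22% of all tests, namely Gemin4 in lumbar controls and Strap in lumbar SMA neurons. Over the 8 genes the median change was −0.10 in controls, beside −0.02 for all genes, and 0.08 in SMA, beside −0.0042.

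The human SMN2 row fell with age in both genotypes. Control means were 169.4 ± 35.4 RPKM at day 2, 154 ± 39.4 at day 5 and 105.1 ± 31.9 at day 10 (SD, n = 24 samples at each day). SMA means were 152 ± 40.6 (n = 36), 152 ± 39.4 (n = 24) and 112.9 ± 29.0 (n = 28). The log2 change from day 2 to day 10 was −0.71 in controls (SE 0.12, limma adjusted p = 3.02e-07) and −0.42 in SMA (SE 0.10, limma adjusted p = 7.53e-04). In these contrasts 21.1% of genes in controls and 23.6% in SMA were called. The change was negative in 12 of 12 combinations of population and genotype, between −1.15 and −0.27. The populations of a genotype come from the same mice, so these 12 are not independent. The difference between the genotypes in this change, 0.29 (SE 0.16), was not past the threshold (limma adjusted p = 0.543).

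The fall of SMN2 was largest in the red nucleus of controls, the 1 population where it was called. Day 2 had 157.2, 160.2, 185.8 and 245.2 RPKM, day 5 had 137.7, 221.5 and 238.1, and day 10 had 62.1, 69.7, 88.1 and 119.4. Every mouse at day 10 lay below every mouse at days 2 and 5, and the share of all genes that separate these days was not computed. The log2 change from day 2 to day 10 was −1.15 (SE 0.25, limma adjusted p = 0.00412, 11.1% of genes called). Mouse Smn1 in controls had 31.1 ± 14.4 RPKM at day 2, 23.3 ± 10.1 at day 5 and 25.8 ± 12.03 at day 10 (SD, n = 24 each). Its log2 change of −0.24 (SE 0.19) was not past the threshold (limma adjusted p = 0.432). Summed glial markers were higher at day 10 in the same red nucleus controls. Astrocyte markers went from a median of 792.5 RPKM (618 to 981) at day 2 to 1576 (1464 to 1849) at day 10, and oligodendrocyte markers from 23.1 (17.5 to 26.6) to 436 (322 to 651). At day 2 Gfap and Mobp were at 0 in all 4 mice. Their part in the SMN2 result was not tested.

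**Figure D4:**
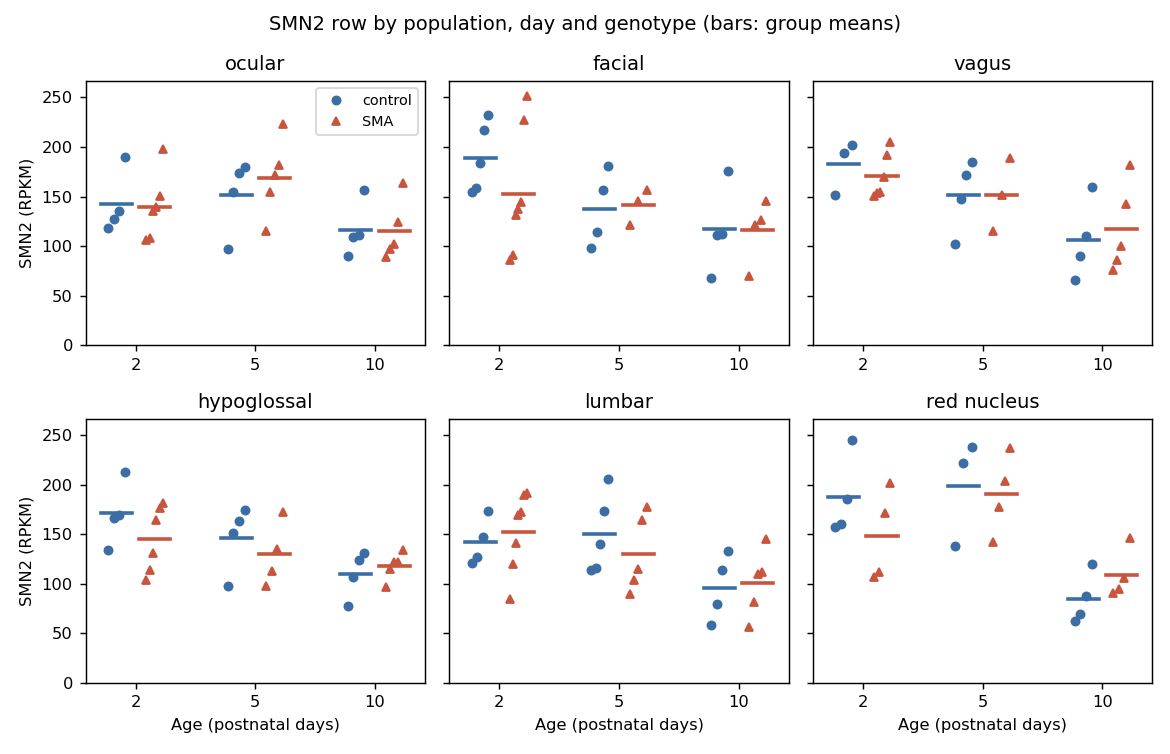
The SMN2 row in RPKM for each mouse (points; circles control, triangles SMA) by population and postnatal day, with bars at group means. Day 10 has the lowest mean in all 6 populations in both genotypes, and the genotypes overlap in every panel.

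Strap rose with age in SMA mice. Its log2 change from day 2 to day 10 averaged over populations was 0.25 in SMA (SE 0.07, limma adjusted p = 0.00296; 0.0661 in a fit of means per mouse) and 0.17 in controls (SE 0.08, limma adjusted p = 0.124). The genotypes' changes differed by 0.08 (SE 0.10, limma adjusted p = 0.864). In lumbar SMA neurons day 2 had 58.8 to 82.9 RPKM (median 73.6, 7 mice) and day 10 had 87.5, 88.1, 90.6, 106.8 and 109.9, a log2 change of 0.40 (SE 0.10, limma adjusted p = 0.00465, 18.4% of genes called). The days did not overlap, and the share of all genes that separate them was not computed. In lumbar controls day 2 had 70.8, 71.5, 76.7 and 82.4 and day 10 had 67.6, 78.04, 79.01 and 83.3, so these overlapped. The lumbar genotype difference at day 10, where the mice did not overlap, was 0.32 (SE 0.12, limma adjusted p = 0.248).

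Oligodendrocyte marker sums had a higher median at day 10 than at day 2 in both genotypes in 5 of the 6 populations. Over all populations the 6 markers summed to a median of 33.1 RPKM (16.9 to 110) in controls at day 2 and 426 (41.4 to 1176) at day 10, and to 41.5 (17.3 to 151) and 359 (59.1 to 993) in SMA. The vagus did so in SMA only, with medians of 88.7 at day 2 and 58.2 at day 10 in controls and 58.3 and 74.5 in SMA. In lumbar SMA neurons, where Strap was called, the oligodendrocyte median went from 29.2 to 744 RPKM and the astrocyte median from 1746 to 1251. Mog was at 0 in all mice of the vagus SMA group at day 2. Median depth was 6.51 M reads at day 2 and 4.98 at day 10 in controls, and 5.61 and 4.80 in SMA. Their part in the changes with age was not tested.

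Populations differed most in Strap, the Unrip gene. Over the mean of the 3 days, 3 of the 8 genes differed among the 6 populations in controls (Strap, Ddx20, Gemin7), against 43.7% of all genes, and 3 in SMA (Strap, Gemin2, Gemin8), against 45% of all genes. Both shares lay near the background. Strap was the member called in both genotypes, with F 5.20 (limma adjusted p = 8.33e-04) in controls and F 15.4 (limma adjusted p = 6.91e-11) in SMA. Neither Smn1 in controls (F 1.31, limma adjusted p = 0.393) nor SMN2 (F 0.53 in controls and 0.84 in SMA) was called.

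Strap was highest in lumbar and lowest in vagus neurons. Controls had 79.3 ± 8.64 RPKM in lumbar (SD, n = 13), 78.1 ± 15.4 in hypoglossal (n = 12), 75.4 ± 14.5 in facial (n = 13), 71.98 ± 12.4 in ocular (n = 12), 64.2 ± 15.9 in red nucleus (n = 11) and 59.8 ± 8.16 in vagus neurons (n = 11). None of the 5 neighbouring pairs in that order differed (lowest limma adjusted p = 0.269). SMA mice had 85.9 ± 14.2 in lumbar (n = 17), 78.3 ± 11.9 in facial (n = 14), 77.5 ± 11.2 in hypoglossal (n = 15), 76.1 ± 17.3 in ocular (n = 16), 61.5 ± 12.9 in red nucleus (n = 12) and 55.5 ± 8.74 in vagus neurons (n = 14). There 1 neighbouring pair differed, ocular above red nucleus, by 0.31 on the log2 scale (SE 0.09, limma adjusted p = 0.0110). In both genotypes the 4 highest were the lumbar, facial, hypoglossal and ocular neurons and the 2 lowest the red nucleus and vagus.

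**Figure D5:**
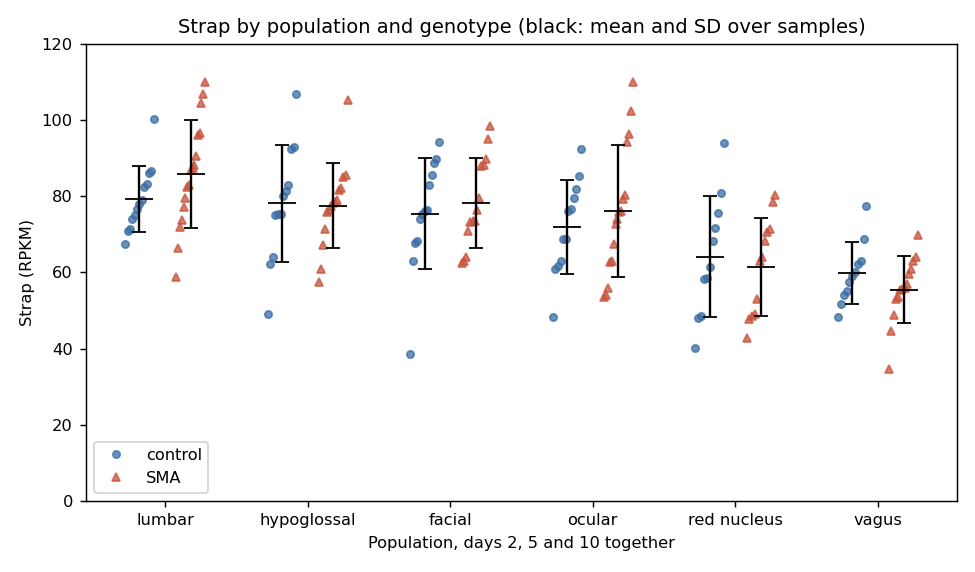
Strap in RPKM for each sample (circles control, triangles SMA) by population, all days together, with the mean and SD in black. Means fall from lumbar (79.3 control, 85.9 SMA) to vagus (59.8 control, 55.5 SMA).

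The vagus samples also stood apart in glial content. Astrocyte markers summed to a median of 570 RPKM (362 to 797) in vagus controls and 526.1 (403 to 1045) in vagus SMA samples, against 1665 (1039 to 1983) and 1746 (1014 to 2069) in lumbar samples. The medians of the other populations lay between 1126 and 1615. Microglial markers were higher in vagus than in lumbar controls, with medians of 30.4 and 8.95 RPKM. The part of these genes in the Strap order was not tested.

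The other population differences depended more on single mice and settings. Ddx20 in controls ran from 6.22 ± 4.53 RPKM in facial and 5.87 ± 2.71 in red nucleus to 3.06 ± 1.14 in lumbar neurons (F 3.33, limma adjusted p = 0.0194). Gemin7 in controls ran from 119.8 ± 26.8 in hypoglossal to 80.6 ± 21.2 in vagus neurons (F 2.83, limma adjusted p = 0.0430). In SMA, Gemin2 ran from 10.0 ± 4.31 in vagus to 4.94 ± 2.53 in red nucleus (F 3.50, limma adjusted p = 0.0141) and Gemin8 from 1.70 ± 1.3 in vagus to 0.570 ± 0.507 in lumbar neurons (F 3.05, limma adjusted p = 0.0297). The tests used log2 levels, whose order was not always that of the RPKM means. On them Ddx20 in controls ran from red nucleus (2.67) to vagus (1.79), and Gemin2 in SMA from vagus (3.48) to lumbar (2.44). Within each of the 4 orders of log2 levels no neighbouring pair passed the threshold. Ddx20 was lost without mouse 26, 71, 247 or 252, Gemin7 without any of 13 mice, Gemin2 without SMA mouse 61 and Gemin8 without any of 8 mice, and the last pair also with a pseudocount of 0.1. With the mouse as a fixed block the controls kept 1 call, Strap, and at day 10 alone none of the 3 was called in controls (Strap F 2.24, limma adjusted p = 0.1599), and Gemin4 was (F 3.65, limma adjusted p = 0.0194).

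Members showed weak relations with each other. Over 36 group means the correlation r between pairs of the 8 genes ran from −0.37 (Ddx20 with Gemin8) to 0.30 (Gemin7 with Strap), with a median of −0.01 over 28 pairs. Groups of different populations hold samples of the same mice, so r is a description. The genes most like Smn1 over the 18 control groups were Fbf1 (r = 0.76), Gemin8 (0.76) and Rps27a (0.76). They are the top of a ranking of 22134 genes, so these r are descriptions too. Those most like Strap over 36 groups were Rhbdl3 (0.89), S100b (0.88) and Tmem128 (0.88).

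The complex hands its work to other proteins, and 23 of these were followed: the 7 Sm proteins it loads, the PRMT5 methylosome that prepares them, and the caps, export, import and Cajal body factors that snRNPs pass through. Averaged over populations, 2 of 69 tests were called for SMA against control, both higher, against 1.15% of all tests. Coil, the scaffold of Cajal bodies, was higher at day 2, with 7.03 ± 3.49 RPKM in controls (SD, n = 24) and 9.70 ± 3.42 in SMA (n = 36) and a log2 difference of 0.54 (SE 0.15, limma adjusted p = 0.0434). Snrpd1, which encodes SmD1, was higher at day 10, with 77.0 ± 13.8 RPKM in controls (n = 24) and 92.2 ± 17.3 in SMA (n = 28) and a log2 difference of 0.26 (SE 0.07, limma adjusted p = 0.0412). Over all days 2 of 23 were called, both higher, against 3.52% of genes. These were Snrpb, which encodes SmB, at 51.1 ± 17.9 and 61.6 ± 19.0 RPKM (log2 difference 0.27, limma adjusted p = 0.0153), and Snrpd1 (0.15, limma adjusted p = 0.0326). The median difference of the 23 over all days was 0.09, beside 0.04 for all genes. Calls of these 23 genes, here and with age below, were not refitted under other settings or with single mice left out. By population 0 of 414 tests were called, against 0.129% of all tests, and 22 had an unadjusted p under 0.05, against 7.1% of all tests.

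With age these partners were called about as often as all genes. From day 2 to day 10, 10 of 46 tests were called, 2 up and 8 down, near the 22.4% of all tests. The exporter gene Xpo1 fell by 0.53 in controls (limma adjusted p = 8.38e-06) and 0.46 in SMA (limma adjusted p = 8.03e-06), from 21.1 to 14.5 RPKM and from 21.1 to 15.1. Snrpd1 fell by 0.30 in controls (limma adjusted p = 0.00160) and 0.18 in SMA (limma adjusted p = 0.0417). Lsm10, part of the U7 snRNP ring, fell by 0.69 in controls (limma adjusted p = 0.0161) and Coil by 0.45 in SMA (limma adjusted p = 0.0168). The cap-binding gene Ncbp1 rose by 0.38 in controls (limma adjusted p = 0.0320) and Zfp259, which encodes the SMN-binding protein ZPR1, by 0.43 in SMA (limma adjusted p = 0.00562). Among populations 9 of 23 differed in controls and 12 of 23 in SMA, near the 43.7% and 45% of all genes.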

How the data were processed

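The authors deposited a table of RPKM (reads per kilobase of gene, scaled to library size) for 168 libraries. Per the submitters' processing notes reads were aligned with STAR 2.4.1c and the builds named are mm10 and hg19. The read counter, its use of strand and the annotation are not given in the sources used here. Depth was recovered from the equal steps of low values in 17340 genes with 1 transcript, where 63.8% to 77.5% of values per library fell within 0.02 of whole reads. No count test was run.

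Where a mouse had several libraries of a population, their RPKM were averaged. Tests used limma 3.58.1 in R 4.3.3 (lmFit, eBayes with trend) on log2(RPKM + 1), two-sided, for genes with an RPKM of at least 1 in as many samples as the smallest group. SMA against control and day 10 against day 2 within a population had a fit per population. Results over populations came from a joint fit of 36 groups and 22270 genes with the mouse as a random block (correlation 0.037). Same-numbered samples are the same animal, so the block is set by the labels. Their deviations from group means correlated with a median of 0.033 (339 pairs) against −0.0064 between other mice. The fits were run on simulated data with known changes, without a mouse effect and without a mouse correlation, so this run does not test the block. Figures used Python 3.11.15 and matplotlib 3.10.9.

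All 10 members are named. From the list of 24 snRNP symbols, of which 23 were in the table, up to 4 called genes per direction and comparison are named. Members and lists were chosen with earlier results of these data known. Pseudocount, filters, normalization, library averaging, the block and each mouse were varied for the 10 members only.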

Additional observations from a re-analysis of the deposited data

Results flagged for a closer look

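In 304 groups of 4 to 7 mice, 28 had a mouse far from the others by Dixon's test (chance flags about 1 in 20 groups), 25 of them as the highest value and 3 as the lowest. All values are RPKM.

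Gemin4 gave 5. Lumbar control mouse 247 at day 10 had 13.4 where the next was 0.847, and this animal sets the overlap in the genotype comparison. The others were hypoglossal control mouse 253 at day 10 (5.599), ocular SMA mouse 249 at day 10 (22.4), and at day 5 hypoglossal control mouse 75 (17.4) and lumbar control mouse 71 (13.4).

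Smn1 was high in facial control mouse 244 at day 2 (63.3) and lumbar control mouse 29 at day 5 (43.8). Gemin2 was high in hypoglossal control mouse 34 at day 5 (18.7), and at day 2 in lumbar SMA mouse 38 (14.1), ocular SMA mouse 206 (14.0) and ocular control mouse 26 (21.0). It was lowest in red nucleus control mouse 26 at day 2, at 0.0, so mouse 26 held both extremes of Gemin2 among day 2 samples.

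Ddx20 was high in red nucleus SMA mouse 207 at day 2 (9.27) and at day 10 in vagus SMA mouse 249 (8.33) and vagus control mouse 254 (6.66), and low in red nucleus SMA mouse 249 at day 10 (2.29). Gemin5 was low in facial control mouse 26 (1.41) and high in vagus SMA mouse 207 (8.86), both at day 2. Gemin6 was high in facial SMA mouse 258 (9.28), lumbar control mouse 253 (4.94) and vagus SMA mouse 250 (14.5) at day 10, and in lumbar control mouse 34 at day 5 (10.3).

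Gemin8 was high at day 2 in facial SMA mouse 18 (2.73) and ocular control mouse 244 (5.12), at day 5 in hypoglossal control mouse 29 (2.90) and red nucleus SMA mouse 77 (0.635), and in red nucleus control mouse 252 at day 10 (3.22), the library with the fewest reads. Strap was high in facial SMA mouse 38 at day 2 (98.5). SMN2 and Gemin7 gave none.

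The change of Gemin4 from day 2 to day 10 in controls differed between vagus and lumbar neurons by 6.08 in log2(RPKM + 1) (SE 1.43, limma adjusted p = 0.00812, 1.26% of genes called). This pair was chosen after its values were seen. Over all 6 populations the F was 4.45 (limma adjusted p = 0.0236, 5.54% of genes called).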

How the results depend on the processing

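Counts are of calls among the 7 Gemins and Strap. For SMA against control by population, 1 became 0 with no filter, with each library as a sample and with only the compared groups in the fit. Averaged over populations at each day, 1 became 0 with a filter of 1 RPKM in 50% of samples, quantile normalization, each library as a sample and means per mouse. Averaged over days too, 0 became 1 (Gemin4) with a pseudocount of 0.1 and with no replicate block (log2 difference 0.70, limma adjusted p = 0.0465). For age, 1 became 0 (Strap) with means per mouse. Among populations in controls 3 became 1 (Strap) with the mouse as a fixed replicate block, and at day 10 alone all 3 were lost and 1 was gained (Gemin4), and in SMA 3 became 1 with a pseudocount of 0.1. The block changed no other count by over 1.5 times.

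Leaving out each of 34 mice moved the counts between 0 and 2 for the genotype by population, 0 and 1 averaged at each day, 0 and 1 over all days, 1 and 3 for age by population, 1 and 2 for age averaged, 1 and 3 for populations in controls, 1 and 4 in SMA, and 0 and 0 for both changes of the genotype difference. The Gemin4 call in lumbar neurons at day 10 was lost without control mouse 252, 253 or 254 or SMA mouse 196, 249 or 250 (log2 difference 2.78 to 4.06 over all mice left out), and its averaged call without any of 14 mice (1.29 to 1.62). Its fall with age in lumbar controls was lost without mouse 244, 253 or 254 (limma adjusted p up to 0.0601). Leaving out a mouse ended no call of SMN2 or Strap. No result reversed. Leaving out the library with the fewest reads changed no count. Groups of 3 to 7 mice and the few reads of Gemin6 (24.0 at the median) and Gemin8 (8.48) limit what could be detected.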
